A study of Mus musculus with 21 samples.

Results

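The genes described here are the chemokine ligand Cxcl12, its receptors Cxcr4 and Ackr3, the sphingosine-1-phosphate (S1P) receptors S1pr1, S1pr2 and S1pr3, and the sphingosine kinases Sphk1 and Sphk2. These 8 genes, chosen by name, were all found among the 24421 genes of the count table, and all 8 were among the 14851 genes with enough reads to be tested. CXCL12 is a secreted chemokine that guides cells through CXCR4, a G protein-coupled receptor, whereas ACKR3 is an atypical receptor that binds and removes CXCL12 and signals through arrestins. In the embryonic heart this axis is known for its part in the growth of coronary vessels. S1P is a signalling lipid made from sphingosine by the kinases SPHK1 and SPHK2 and sensed by a family of G protein-coupled receptors, of which S1PR1 is known for the stabilisation of young blood vessels.

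RNA, GATA4 occupancy and open chromatin were measured in mouse heart ventricles at mid-gestation (embryonic stage E12.5). RNA came from sorted endothelial cells (EC; 2 libraries of 60000 cells that carried the Rosa26fsTrap reporter switched on by Tie2Cre) and from cardiomyocytes (CM; 3 libraries, with their isolation not described in the labels). GATA4, a zinc-finger transcription factor of the heart, was biotinylated after Cre activity and pulled down on streptavidin beads (bioChIP), with Tie2-Cre (3 libraries) or Tnnt2-Cre (3 libraries), each from 15 to 20 pooled ventricles. Tie2-Cre marks endothelial and endocardial cells and is also active in blood cells, and Tnnt2-Cre marks cardiomyocytes. ATAC gave maps of open chromatin from 2 libraries of 40000 Tie2Cre-sorted EC and from 6 libraries of 20000 EC of Gata4 ko (3) and Gata4 het (3) embryos. In those 6 the Rosa26mTmG reporter was switched on by Cdh5(Pac)-CreERT2 after 1 mg of tamoxifen at embryonic day 9.5, and the alleles behind ko and het are not spelled out in the labels. The 2 CM ATAC samples were not analysed here. Whether replicates stem from separate litters is not stated, and the p-values measure the spread between these libraries, which may be technical.

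Counted reads came to 27660790 and 21682362 in EC libraries 1 and 2 and to 42948614 to 48393473 in the 3 CM libraries. The ribosomal precursor RNA Rn45s made up 5.77% and 5.34% of EC counts, against 0.118% to 0.200% of CM counts. The libraries thus differed by cell type in this respect too, and its part in the values below was not tested. The 6 endothelial markers Cdh5, Pecam1, Tek, Kdr, Tie1 and Emcn summed to 4297 and 4274 CPM (counts scaled to library size) in EC, against 587 to 683 CPM in CM. The 6 cardiomyocyte markers Myh6, Myh7, Tnnt2, Actn2, Ryr2 and Pln summed to 315 and 328 CPM in EC, against 47467 to 54358 CPM in CM. Erythroid markers summed to 20.9 and 20.7 CPM in EC, against 1236 to 3067 CPM in CM, with Hba-a1 listed at 0 in all 5 libraries. Most of the CM sum was the globin gene Hbb-y, at 12.04 CPM in EC and 2164 CPM in CM, whereas the erythropoietin receptor gene Epor was higher in EC, at 8.40 CPM in EC and 0.749 CPM in CM. Leukocyte markers stood at 9.43 and 7.88 CPM in EC, against 1.65 to 2.15 CPM in CM. Of the 8 epicardial, fibroblast and mural markers, Tcf21, Pdgfra, Pdgfrb and Col1a1 were higher in EC, Wt1, Tbx18 and Upk3b lower, and Rgs5 did not pass. The part of such other cells in the values below was not tested. In sorted or isolated cells analysed as bulk RNA, fewer cells of a type and less RNA per cell cannot be told apart.

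The 250 bases before the annotated start of 4 of the genes are shown, for the ligand and receptors of the CXCL12 axis and for Sphk2, whose printed window lies inside a GATA4 region. Sequences are from RefSeq (GRCm38.p6, the build also called mm10), read 5′ to 3′ in the direction of the gene. Capitals mark the hypoxia response core, ACGTG or GCGTG on either strand. GATA letters (AGATAA or AGATAG or TGATAA or TGATAG, either strand) and ETS letters (CGGAAG or AGGAAG, either strand) were also searched. Cxcl12 lies at chr6:117168285-117168534 on the plus strand, Cxcr4 at chr1:128592300-128592549 on the minus strand, Ackr3 at chr1:90203730-90203979 on the plus strand and Sphk2 at chr7:45718003-45718252 on the minus strand.
Cxcl12: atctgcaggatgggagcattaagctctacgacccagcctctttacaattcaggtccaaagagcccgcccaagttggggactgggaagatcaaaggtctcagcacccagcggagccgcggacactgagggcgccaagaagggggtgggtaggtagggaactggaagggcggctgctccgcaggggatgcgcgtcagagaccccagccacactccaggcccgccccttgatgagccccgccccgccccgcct
Cxcr4: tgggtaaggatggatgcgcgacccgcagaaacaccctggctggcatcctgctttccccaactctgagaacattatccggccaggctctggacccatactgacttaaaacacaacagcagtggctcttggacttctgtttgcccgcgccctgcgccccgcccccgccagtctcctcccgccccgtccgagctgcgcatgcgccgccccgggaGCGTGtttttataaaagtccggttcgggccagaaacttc
Ackr3: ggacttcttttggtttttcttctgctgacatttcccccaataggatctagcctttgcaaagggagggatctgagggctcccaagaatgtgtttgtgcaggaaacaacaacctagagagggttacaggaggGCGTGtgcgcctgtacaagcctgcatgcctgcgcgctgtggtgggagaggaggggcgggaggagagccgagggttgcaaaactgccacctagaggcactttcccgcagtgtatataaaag
Sphk2: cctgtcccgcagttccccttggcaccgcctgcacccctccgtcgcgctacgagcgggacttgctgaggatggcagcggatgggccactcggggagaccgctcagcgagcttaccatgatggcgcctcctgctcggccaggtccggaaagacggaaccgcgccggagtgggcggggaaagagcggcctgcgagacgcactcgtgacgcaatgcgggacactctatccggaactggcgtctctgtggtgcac

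None of these 4 windows held the GATA or ETS letters searched. Ackr3 held GCGTG from 120 to 116 bases before the start, and Cxcr4 held it from 39 to 35 bases before the start. Of 32851 promoters cut to the same 250 bases, 26.5% held at least 1 of the GATA hexamers, 39.2% an ETS hexamer and 38.6% a hypoxia response core. For S1pr2 the window held the core once, on the other strand. The window at a second annotated start of Sphk2 (chr7:45715208-45715457) held it once as well, also on the other strand. The windows at S1pr3 held none of the letters. Sphk1 has 5 annotated starts, and the windows before its 2 most internal starts shared 1 AGATAA match, read as TTATCT, while ETS letters stood in 2 others and the hypoxia response core in 4 of the 5. The printed windows of Cxcl12, Cxcr4 and Sphk2 were 64.4%, 61.2% and 67.6% G or C and that of Ackr3 54.0%, all above the median of 52.4% of all windows. S1pr1 was not matched in the RefSeq table used.

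RNA of the ligand and of its receptors lay on opposite sides. Cxcl12 was far lower in EC than in CM, while Cxcr4 and Ackr3 were both higher in EC. All 8 genes passed the test between EC and CM, 6 higher in EC and 2 lower (edgeR quasi-likelihood test, adjusted p under 0.05). Of all genes tested 77.8% passed, 37.5% higher and 40.2% lower in EC, so passing is itself the common outcome in this comparison. The median log2 fold change, EC minus CM, was 1.58 over the 8 genes and -0.06 over all genes tested. Sphk1 was tested only because of its EC level, which sets its direction, and over the 7 other genes 5 were higher and 2 lower, with a median of 1.51. For all 8 genes the 2 EC and 3 CM libraries did not overlap, as was so for 85.3% of the genes tested.

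**Figure D1:**
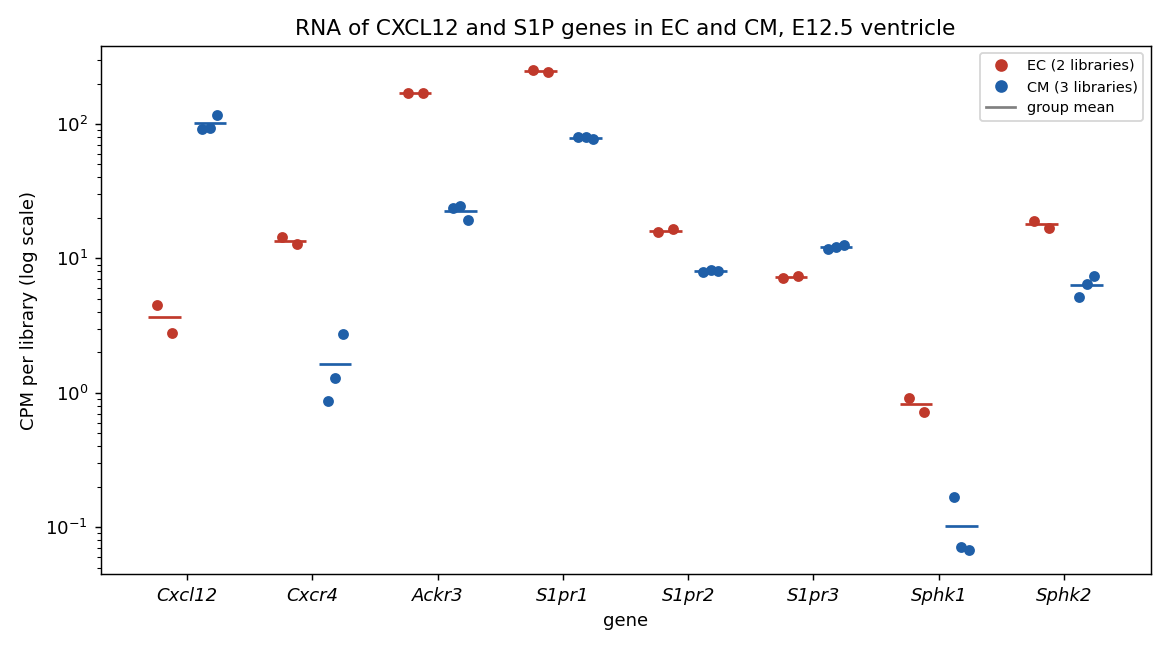
CPM of the 8 genes (x axis) in each EC library (red, left of each pair) and CM library (blue, right) on a log scale, with the group mean as a bar. Cxcl12 and S1pr3 are lower in EC and the other 6 higher, and no gene has overlapping groups.

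Cxcl12 (chr6:117168535-117181368, plus strand, mm10) had 4.502 and 2.762 CPM in EC, against 92.5, 93.0 and 118 CPM in CM. All 3 CM libraries lay far above both EC libraries. The log2 fold change was -4.77 with an SE of 0.19 (adjusted p = 2.78e-09, edgeR), so Cxcl12 was 27.3-fold higher in CM. It ranked 708 of 14851 genes by the size of the difference, ahead of the other 7 genes. The EC reads numbered 127 and 61. Its EC level was 3.60% of its CM level, while the 6 cardiomyocyte markers in EC stood at 0.257% to 2.16% of their CM levels. Per length, Cxcl12 had 0.507 ± 0.17 RPKM (reads scaled to gene length and library size) in EC (SD, n = 2) and 14.1 ± 2.0 RPKM in CM (SD, n = 3).

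Cxcr4 (chr1:128588199-128592299, minus strand), the signalling receptor of CXCL12, had 14.4 and 12.8 CPM in EC, against 0.874, 1.29 and 2.72 CPM in CM. The EC libraries were close together, whereas the CM libraries spread over a wide range at a low level. The log2 fold change was 3.06 with an SE of 0.33 (adjusted p = 8.61e-06, edgeR), an 8.36-fold higher level in EC. Without CM library 3 the log2 fold change was 3.65. Among CM libraries 1, 2 and 3, the summed erythroid markers were 3067, 2287 and 1236 CPM and the summed leukocyte markers 2.08, 1.65 and 2.15 CPM, and their part in the spread of Cxcr4 was not tested.

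Ackr3 (chr1:90203980-90215722, plus strand), the scavenging receptor, had 171 and 169 CPM in EC, against 23.7, 24.6 and 19.3 CPM in CM. Both groups were tight and far apart, at a log2 fold change of 2.92 with an SE of 0.10 (adjusted p = 9.25e-10, edgeR) or 7.56-fold. Per length, Ackr3 exceeded Cxcr4 in every library. The ratio of Ackr3 to Cxcr4 RPKM was 9.34 and 10.4 in EC, against 21.2, 14.8 and 5.56 in CM, so the groups overlapped in this ratio. The ratio of Cxcl12 to Cxcr4 RPKM was 0.0794 and 0.0548 in EC, against 26.8, 18.2 and 10.96 in CM, with no overlap. The ratio of Cxcl12 to Ackr3 RPKM was likewise far lower in EC, at 0.00850 and 0.00528, against 1.26, 1.23 and 1.97 in CM.

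For the S1P receptors, S1pr1 and S1pr2 were higher in EC and S1pr3 was lower. S1pr1 (chr3:115710433-115715055, minus strand), which couples to Gi, had 253 and 246 CPM in EC, against 80.01, 80.20 and 77.9 CPM in CM. Replicates within each group lay very close, and the log2 fold change was 1.65 with an SE of 0.07 (adjusted p = 2.70e-09, edgeR), or 3.14-fold. S1pr2 (chr9:20965952-20976793, minus strand), known for coupling to G12 and G13, had 15.6 and 16.4 CPM in EC, against 7.93, 8.26 and 8.12 CPM in CM. Its difference was smaller, at a log2 fold change of 0.98 with an SE of 0.12 (adjusted p = 1.81e-05, edgeR). S1pr3 (chr13:51408618-51422797, plus strand), which couples to several G protein classes including Gq, had 7.12 and 7.43 CPM in EC, against 11.7, 12.1 and 12.6 CPM in CM. It was lower in EC by a modest amount, at a log2 fold change of -0.74 with an SE of 0.13 (adjusted p = 0.000341, edgeR), or 1.67-fold higher in CM. Tested against a 2-fold difference, neither S1pr2 nor S1pr3 passed (adjusted p = 0.632 and 1.00, edgeR glmTreat).

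The receptors differed in their mix as well as in level. Of the summed RPKM of the 3 receptors, S1pr1 made up 92.1% and 91.5% in EC, against 83.0%, 82.5% and 81.9% in CM. S1pr2 made up 6.12% and 6.58% in EC, against 8.85%, 9.14% and 9.19% in CM. S1pr3 made up 1.76% and 1.87% in EC, against 8.17%, 8.39% and 8.95% in CM. S1pr1 was thus the main receptor RNA in both cell types. In percentage points the share of S1pr1 differed most, and as a ratio that of S1pr3.

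Both sphingosine kinase genes were higher in EC. Sphk2 (chr7:45709463-45718002, minus strand), whose product is largely found in the nucleus and other organelles, had 19.1 and 16.8 CPM in EC, against 5.14, 6.40 and 7.45 CPM in CM. The log2 fold change was 1.51 with an SE of 0.16 (adjusted p = 7.23e-06, edgeR), or 2.84-fold. Sphk1 (chr11:116531911-116536675, plus strand), whose product is mainly cytosolic, was near the limit of detection, with 26 and 16 reads in EC, against 8, 3 and 3 reads in CM. These are 0.922 and 0.724 CPM in EC, against 0.167, 0.0706 and 0.0673 CPM in CM. Its log2 fold change was 2.97 with an SE of 0.54 (adjusted p = 0.000445, edgeR). No CM library reached the 0.233 CPM that the filter on low counts asked for, so Sphk1 was tested only because of its EC level. The ratio of Sphk1 to Sphk2 RPKM was 0.0873 and 0.0782 in EC, against 0.0587, 0.0200 and 0.0164 in CM.

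Ordered per length in EC, the mean levels were 82.3 RPKM for S1pr1, 73.5 for Ackr3, 7.48 for Cxcr4, 5.69 for S1pr2, 4.32 for Sphk2, 1.62 for S1pr3, 0.507 for Cxcl12 and 0.358 for Sphk1. The EC libraries of Cxcl12 and Sphk1 overlapped, and the other neighbours in this order did not. In CM the order was 26.2 RPKM for S1pr1, 14.1 for Cxcl12, 9.72 for Ackr3, 2.88 for S1pr2, 2.702 for S1pr3, 1.52 for Sphk2, 0.897 for Cxcr4 and 0.0442 for Sphk1. There Sphk2 and Cxcr4 overlapped, and the ranges of S1pr2 (2.82 to 2.93 RPKM) and S1pr3 (2.60 to 2.81 RPKM) all but met. Cxcl12 stood at the 17.9th percentile of genes tested in EC and at the 68.9th in CM. S1pr1 stood at the 95.4th percentile in EC and at the 81.5th in CM.

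As a yardstick, the 6 endothelial markers in CM stood at 7.26% to 22.2% of their EC levels. Cxcr4 and Ackr3 in CM stood at 12.004% and 13.2% of their EC levels, inside that range. S1pr1, S1pr2 and Sphk2 in CM stood at 31.8%, 50.6% and 35.2% of their EC levels, above that range. For Sphk1 the value was 12.3%, but it rests on 8, 3 and 3 CM reads. No CM library reached the filter on low counts, so this value cannot place Sphk1 on the yardstick. Whether endothelial cells among the CM account for any of these levels was not tested.

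Genes that work with CXCL12 and its receptors were mostly higher in EC. Of 19 tested among 21 listed regulators and effectors of the axis, 13 were higher, 5 lower and 1 did not pass, with a median log2 fold change of 0.86. Elmo1, an adaptor for Rac activation, differed most clearly at 2.91 on the log2 scale (51.5 CPM in EC and 6.85 in CM), followed by the G protein subunit gene Gnb1 with 573 CPM in EC and 143 CPM in CM. Lower in EC were the receptor kinases Adrbk2 (also named Grk3) at -2.12 and Grk5 at -0.81, the alternative CXCR4 ligand Mif at -1.65, the inhibitory G protein subunit gene Gnai1 at -1.07, and Adm at -2.89, whose product adrenomedullin is also taken up by ACKR3. Adm was low in both groups, with 0.250 CPM in EC and 1.93 CPM in CM. Cd74 had no reads in EC and 0.110 CPM in CM and was not tested.

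Other chemokine genes were sparse. Of 26 listed ligands and receptors only 12 had enough reads to be tested, of which 9 were higher in EC, 2 lower and 1 did not pass, with a median log2 fold change of 2.12. Ccl3, Ccl4, Cx3cr1 and Ackr1, all of them higher, reached the filter on low counts (0.233 CPM) in no CM library and were tested only because of their EC level, which sets their direction. Of the remaining 8 genes 5 were higher and 2 lower, with a median of 1.80. The shares over all genes tested were 37.5% higher and 40.2% lower in EC. Cxcl16, a membrane-bound chemokine, had 16.5 CPM in EC and 2.06 CPM in CM (log2 fold change 3.01). Cxcl1 had 14.01 CPM in EC and 3.58 CPM in CM (log2 fold change 1.96). The receptor gene Cx3cr1, which is also a macrophage marker, differed by 5.17 on the log2 scale at 1.70 CPM in EC and 0.0445 CPM in CM. Lower in EC were its ligand gene Cx3cl1 at -1.16 and Ccl25 at -1.04.

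Genes that make, break down or move S1P were mixed in direction. Of 24 tested among 26 listed, 13 were higher in EC, 5 lower and 6 did not pass, with a median log2 fold change of 0.21. Over all genes tested 77.8% passed, 37.5% higher and 40.2% lower in EC. The S1P exporter gene Spns2 had 26.0 ± 4.1 CPM in EC (SD, n = 2) and 2.68 ± 0.35 CPM in CM (SD, n = 3). Its log2 fold change was 3.27 with an SE of 0.16 (adjusted p = 1.04e-08, edgeR). Acer2, an alkaline ceramidase that frees sphingosine, had 290 ± 9.4 CPM in EC and 40.5 ± 7.2 CPM in CM (log2 fold change 2.84). Ppap2b (also named Plpp3), a lipid phosphatase at the cell surface, differed by 2.37 on the log2 scale. Sgpl1, the lyase that ends S1P signalling, had 48.3 CPM in EC and 49.0 CPM in CM and did not pass (log2 fold change -0.02, adjusted p = 0.821, edgeR). Lower in EC were the sphingomyelin genes Sgms1 (-0.93) and Smpd1 (-0.78), the acid ceramidase gene Asah1 (-0.66) and the ceramide synthase genes Cers6 (-0.65) and Cers2 (-0.62).

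Among 18 genes tested of 19 listed receptors for S1P and the related lipid LPA and their G protein route, 10 were higher in EC, 5 lower and 3 did not pass, with a median log2 fold change of 0.70 (0.58 without S1pr4, which reached the filter in no CM library). Beside this, 37.5% of all genes tested were higher and 40.2% lower in EC. Arhgef1, an exchange factor driven by G12 and G13, had 131 CPM in EC and 13.3 CPM in CM (log2 fold change 3.30). The LPA receptors were split, since Lpar1 was higher in EC by 1.87 on the log2 scale and Lpar3 lower at -4.66. Lpar3 had 1.90 CPM in EC and 48.3 CPM in CM, a difference close in size to that of Cxcl12. Also lower in EC were Arhgef12 (-0.74), the kinase genes Rock1 (-0.57) and Rock2 (-0.30), and Lpar6 (-0.46). The remaining S1P receptor genes were scarce, with S1pr4 at 0.649 CPM in EC and 0.0828 CPM in CM and S1pr5 at 0.124 CPM in EC and 0.303 CPM in CM.

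**Figure D2:**
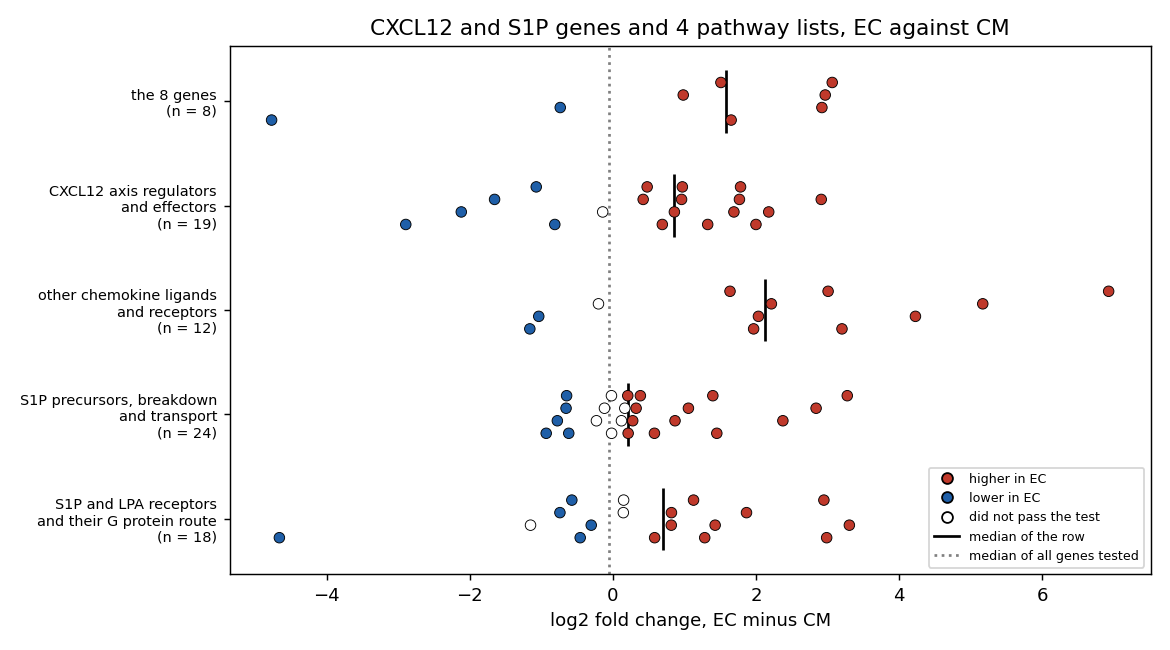
Log2 fold change, EC minus CM (x axis), of the 8 genes and of the tested genes of 4 pathway lists (rows), with filled points for genes that passed the test and a bar at the row's median. The 8 genes have a median of 1.58 and the chemokine list of 2.12, while the S1P metabolism list has 0.21, near the -0.06 of all genes tested (dotted line).

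For each of the 8 genes, the genes with the nearest pattern over the 5 RNA libraries were sought, as the smallest distance of centred log2 CPM among genes with a mean of at least 10 CPM. Nearest to Cxcl12 were Rcan2 (distance 0.0685) and Unc13c (0.203). Tnc and Eln were nearest to Cxcr4, and Abi3 and Pdgfrb to Ackr3. For S1pr1 Tmem164 was among the nearest, for S1pr2 they were Cyb5r3 and Dedd, and for S1pr3 Gemin6 and Dcbld2. Arpc1b and Wnt11 were nearest to Sphk1, and Phf2 and Pml to Sphk2. The distances of Cxcr4 (0.395) and Sphk1 (0.267) to their nearest gene were the largest, and that of S1pr1 (0.0291) the smallest. With 5 libraries in 2 groups, such likeness mainly reflects a similar fold change.

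GATA4 peaks were counted in each gene body and within 50 kb of it. The 8 genes held 14, 2 and 24 peaks in Tie2-Cre libraries 1, 2 and 3, against 24, 3 and 29 peaks in Tnnt2-Cre libraries 1, 2 and 3. The second library of each lineage had far fewer peaks in all (2734 for Tie2-Cre and 3603 for Tnnt2-Cre) than the others (17682 and 25936 for Tie2-Cre, 22814 and 30447 for Tnnt2-Cre). Per 1000 peaks of its list, the 8 genes held 0.792, 0.732 and 0.925 peaks with Tie2-Cre, against 1.05, 0.833 and 0.952 with Tnnt2-Cre. These ranges overlapped, and the difference was -0.129, beside SDs of 0.0992 with Tie2-Cre and 0.110 with Tnnt2-Cre (exact two-sided permutation test, p = 0.2, where 3 libraries against 3 cannot give less than 0.1). The sign of this difference turned with 20 kb or 100 kb in place of 50 kb and with stricter peaks.

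Merging peaks that shared at least 1 base gave 39 GATA4 regions at the 8 genes, of which 28 had a peak in at least 2 libraries of a lineage. Here a region is called selective with at least 2 of 3 libraries of one lineage and 0 of the other, and shared when both lineages had 2 or 3 libraries. Of the 39 regions 4 were Tie2-Cre-selective, 9 Tnnt2-Cre-selective and 7 shared, while 8 had 2 or 3 libraries of one lineage and 1 of the other. Over all 49798 GATA4 regions the shares were 12.2% Tie2-Cre-selective, 18.2% Tnnt2-Cre-selective and 13.1% shared. Because the second libraries are short, these classes rest on libraries 1 and 3. Without Tie2-Cre library 1 or 3 the number of Tie2-Cre-selective regions is 0 and of shared regions 2, and without library 3 that of Tnnt2-Cre-selective regions is 15. Without Tnnt2-Cre library 1 or 3 there is 1 Tnnt2-Cre-selective region and 2 are shared. A missing peak in a list is not proof of unbound chromatin.

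All 8 genes had a GATA4 region found in at least 2 libraries of a lineage, as 73.2% of 24179 placed genes did. A Tie2-Cre-selective region was found at 2 of the 8 (Cxcr4 and S1pr1), against 28.1% of placed genes. A Tnnt2-Cre-selective region was found at 6 of 8, against 39.1% of placed genes, the exceptions being S1pr2 and Sphk2. A shared region was found at 4 of 8 (Cxcl12, Cxcr4, S1pr1 and S1pr2), against 41.2% of placed genes. S1pr1 had 8 such reproducible regions, at the 98.5th percentile of placed genes, and Cxcr4 had 5, at the 93.8th, where the median gene had 2. The regions at S1pr1 and Cxcr4 thus included all 4 that were Tie2-Cre-selective, while both genes had Tnnt2-Cre-selective regions too.

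**Figure D3:**
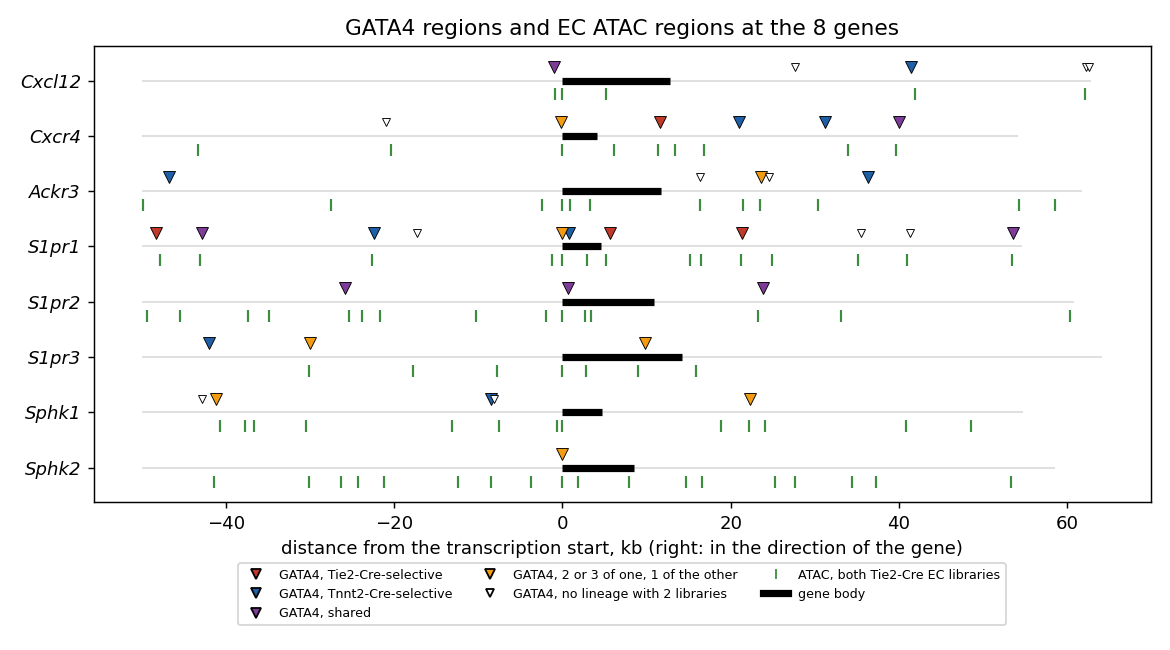
GATA4 regions (triangles, coloured by lineage class, small and open where no lineage had 2 libraries) and ATAC regions found in both Tie2-Cre EC libraries (green ticks) by distance from the start of each gene in kb, with the gene body in black. S1pr1 and Cxcr4 carry the 4 red Tie2-Cre-selective triangles, and the 9 blue Tnnt2-Cre-selective ones are spread over 6 genes.

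In the region descriptions below, distances run from the start of the gene to the nearest edge of the region, and fold values are the authors' own enrichment per peak, which describe a peak within its list. Cxcl12 had 2 reproducible GATA4 regions. The first, chr6:117166925-117167536, lay 999 bases before the start between genes and was shared, with folds of 4.89 and 5.57 in Tie2-Cre libraries 1 and 3, against 4.24 and 6.05 in Tnnt2-Cre libraries 1 and 3. The second, chr6:117210012-117210880, lay 41.5 kb past the start, beyond the end of the gene, and was Tnnt2-Cre-selective. It had no peak in any Tie2-Cre library and folds of 9.07, 4.63 and 10.3 in Tnnt2-Cre libraries 1, 2 and 3. It was the single one of the 9 Tnnt2-Cre-selective regions to be found in all 3 libraries. Its peaks stood at the 95.6th, 9.41st and 96.7th percentile of their lists by fold. Between genes by the annotation used, the window around Cxcl12 held no other gene.

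Cxcr4 had 5 reproducible regions, 1 at its start and 4 beyond the end of the gene. The shared region chr1:128551925-128552331 lay 40.0 kb past the start, with folds of 5.14 and 5.27 with Tie2-Cre, against 5.33 and 5.29 with Tnnt2-Cre. The Tie2-Cre-selective region chr1:128580309-128580675 lay 11.6 kb past the start, with folds of 5.57 and 6.87 in Tie2-Cre libraries 1 and 3 and no peak in any Tnnt2-Cre library. At the start, chr1:128592437-128592782 had a fold of 3.89 in Tie2-Cre library 3, against 4.34 and 4.13 in Tnnt2-Cre libraries 1 and 3. This region begins 138 bases before the start and covers 113 of the 250 promoter bases printed above. The 2 remaining regions, 20.9 and 31.2 kb past the start, were Tnnt2-Cre-selective.

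Ackr3 had 3 reproducible regions, none of them reproducible with Tie2-Cre. The region chr1:90227559-90228099, 23.6 kb past the start, had a fold of 4.33 in Tie2-Cre library 1, against 6.69 and 5.66 in Tnnt2-Cre libraries 1 and 3. The Tnnt2-Cre-selective regions chr1:90156938-90157292 and chr1:90240356-90240732 lay 46.7 kb before and 36.4 kb past the start, and the nearest start to the farther one was that of Iqca. No merged GATA4 region at Ackr3, whose RNA was 7.56-fold higher in EC, was found in more than 1 Tie2-Cre library. Tie2-Cre library 3 had a separate peak at chr1:90228593-90228853, with a fold of 4.47. It lay in the same merged ATAC region (chr1:90227468-90229159) as the Tie2-Cre library 1 peak.

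S1pr1 had 8 reproducible regions in a window that held no other gene. The shared region chr3:115661052-115661502, 53.6 kb past the start, had folds of 7.32, 6.09 and 6.76 with Tie2-Cre, against 5.79 and 7.53 in Tnnt2-Cre libraries 1 and 3. The shared region chr3:115757849-115758806, 42.8 kb before the start, had folds of 4.37 and 4.07 in Tie2-Cre libraries 1 and 3, against 7.05, 4.84 and 9.10 with Tnnt2-Cre. The region over the start itself, chr3:115714686-115715135, was weak, with a fold of 3.24 in Tie2-Cre library 3, against 3.52 and 3.47 in Tnnt2-Cre libraries 1 and 3, all at or below the 2.503rd percentile of their lists. The Tie2-Cre-selective regions, named after their values were seen, lay 5.62 kb past the start (chr3:115708960-115709433), 21.4 kb past it (chr3:115693368-115693702) and 48.3 kb before it (chr3:115763381-115763575). Their folds ran from 3.77 to 5.43 in Tie2-Cre libraries 1 and 3, at the 2.64th to 56.4th percentile of their lists. The 2 Tnnt2-Cre-selective regions lay in the intron, 743 bases past the start, and 22.4 kb before the start. The intronic one was weak, with folds of 3.43 and 3.19 in Tnnt2-Cre libraries 1 and 3. These stood at the 1.70th and 0.709th percentile of their lists. For peaks this low in a list, absence from the other lineage says little.

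S1pr2 had the strongest GATA4 region of the set and the only one found in all 6 libraries. This region, chr9:20975223-20976088, lies in the intron 705 bases past the start. Its folds were 9.499, 8.42 and 7.58 in Tie2-Cre libraries 1, 2 and 3, against 11.2, 8.23 and 13.8 in Tnnt2-Cre libraries 1, 2 and 3. These stood at the 97.6th, 95.5th and 89.2nd percentile of the Tie2-Cre lists, against the 98.8th, 93.9th and 99.5th of the Tnnt2-Cre lists. The other 2 regions in its window were shared as well, but lay in an exon of Dnmt1 (chr9:20952597-20952962) and at the start of Mrpl4 (chr9:21002608-21003411), both nearer to those genes.

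S1pr3, Sphk1 and Sphk2 had few Tie2-Cre peaks. At S1pr3, chr13:51418458-51418756 in an exon, 9.84 kb past the start, had folds of 5.37 and 4.47 in Tie2-Cre libraries 1 and 3, against 3.84 in Tnnt2-Cre library 3. The region chr13:51378019-51378574, 30.0 kb before the start, had a fold of 6.76 in Tie2-Cre library 3, against 6.21 and 6.77 in Tnnt2-Cre libraries 1 and 3. The Tnnt2-Cre-selective region chr13:51366115-51366615 lay 42.0 kb before the start. At Sphk1, the region chr11:116554216-116554587, in an intron of Ube2o, had a fold of 5.81 in Tie2-Cre library 3, against 5.39 and 6.31 in Tnnt2-Cre libraries 1 and 3. The region chr11:116523054-116523436, 8.47 kb before the start of Sphk1, was Tnnt2-Cre-selective by the merging rule used. Close by, at chr11:116523557-116523822, Tie2-Cre library 3 had a peak with a fold of 5.34. Both overlap the same merged ATAC region, chr11:116523324-116524323. The region chr11:116490223-116490702 lay at the start of Prpsap1. The single region at Sphk2, chr7:45717908-45718405, covered its start and all 250 promoter bases printed above, with a fold of 4.23 in Tie2-Cre library 3, against 3.96 and 4.55 in Tnnt2-Cre libraries 1 and 3. The same stretch holds an exon of Rpl18, which starts 69 bases from Sphk2 in the other direction.

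All 12 GATA4 regions that were reproducible with Tie2-Cre overlapped an ATAC peak in both Tie2-Cre EC libraries, as did 91.4% of all such regions. Among the selective regions, all 4 with Tie2-Cre alone and 4 of the 9 with Tnnt2-Cre alone were open in both EC libraries, against 88.3% and 41.3% of all regions of these classes. The Tnnt2-Cre-selective regions open in EC were the far one at Cxcl12, both at S1pr1 and the one at Sphk1. The 5 at Cxcr4, Ackr3 and S1pr3 had no ATAC peak in any of the 8 libraries. The number of Tie2-Cre reproducible regions open in EC falls to 2 without Tie2-Cre GATA4 library 1 or 3, since the regions themselves are then no longer reproducible.

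**Figure D4:**
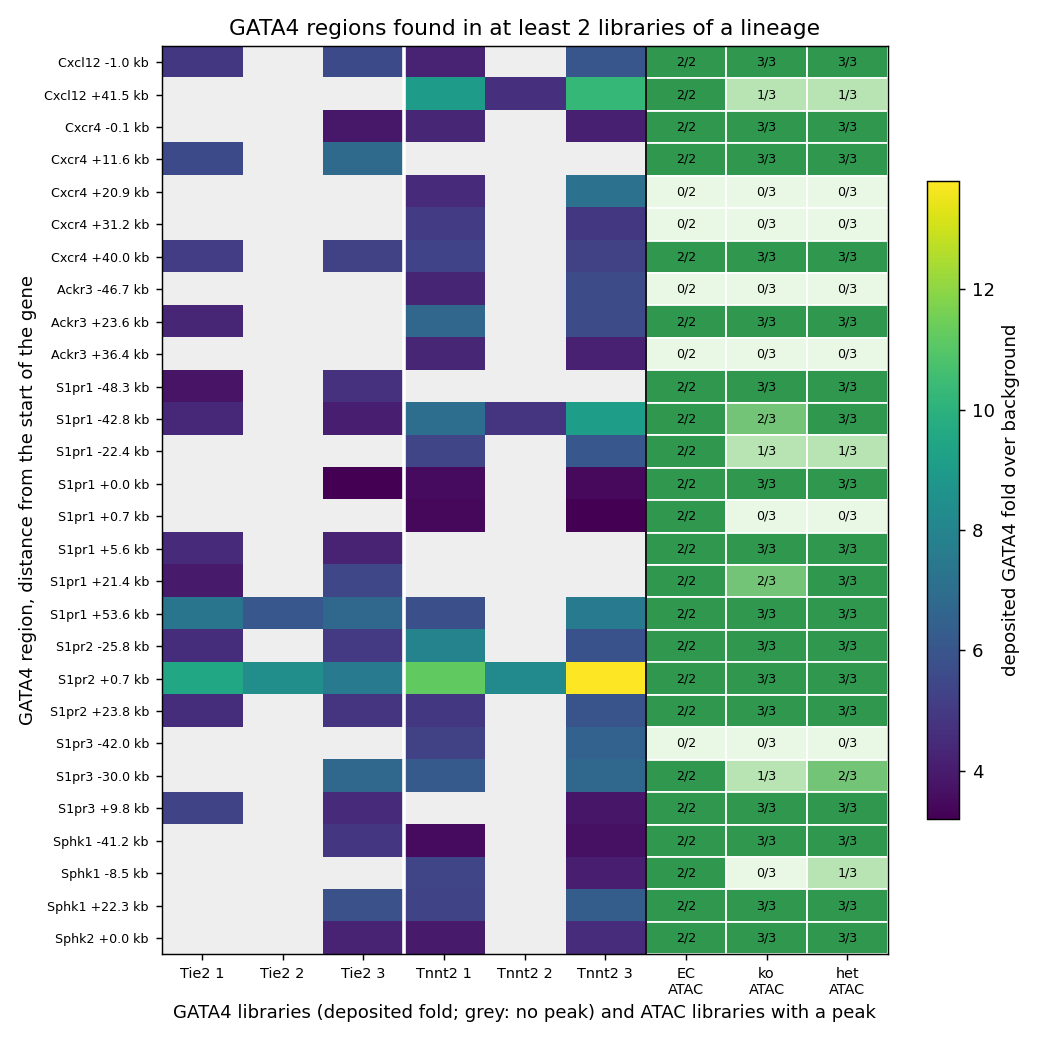
The 28 GATA4 regions found in at least 2 libraries of a lineage (rows, by distance from the start of the gene), with the deposited fold of the peak in each GATA4 library (colour, grey where there was no peak) and the number of ATAC libraries with a peak (green). The intronic S1pr2 region has a peak in all 6 GATA4 libraries, and the far Cxcl12 region has one in the 3 Tnnt2-Cre libraries and in no Tie2-Cre library.

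Open chromatin around the 8 genes comprised 140 merged ATAC regions, of which 93 were found in both Tie2-Cre EC libraries and 42 in all 8 libraries. Of these 93 regions, 42 also had a peak in all 6 ko and het libraries and 25 had none there. Over all regions found in both Tie2-Cre EC libraries, 38.1% had a peak in all 6 and 20.6% had none. Tie2-Cre and Cdh5-CreERT2 cells differ in the driver, the reporter, the number of cells and the dissociation kit. The Cdh5-CreERT2 embryos were also all Gata4 ko or het and had been given tamoxifen. These differences cannot be told apart. Sphk2 had the most regions open in both EC libraries, 18, in a window with 9 other genes, and Cxcl12 had the fewest, 5.

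A merged ATAC region at the start of each of the 8 genes had peaks in all 8 libraries, also at Cxcl12, whose RNA was low in EC. The peak over the start of S1pr1 had the highest fold of the 8 in each Tie2-Cre EC library, at 17.1 and 18.2, the 97.8th and 98.9th percentile of these lists. Next were Sphk2 at 16.6 and 16.7, S1pr2 at 15.0 and 14.5, and Ackr3 at 12.8 and 12.8. Cxcl12 had 8.77 and 10.0, S1pr3 9.07 and 8.40, Sphk1 8.77 and 7.94, and Cxcr4 8.05 and 8.30. Peaks at the starts of Cxcl12 and Cxcr4 were thus of similar fold in EC, while EC RNA per length was higher for Cxcr4.

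In the Cdh5-CreERT2 libraries, the peak over the S1pr1 start had folds of 9.47, 8.73 and 7.86 in ko, against 7.60, 7.54 and 8.58 in het, so the groups overlapped. At the Cxcl12 start the folds were 5.198, 5.48 and 3.81 in ko, against 4.57, 3.004 and 4.601 in het, again overlapping. At Ackr3 they were 5.51, 6.99 and 6.37 in ko, against 6.03, 7.92 and 5.74 in het. No peak covered the exact start base of Cxcr4 in ko replicate 2 and het replicate 4, nor that of Sphk1 in any of the 6, although peaks lay in the same merged region.

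**Figure D5:**
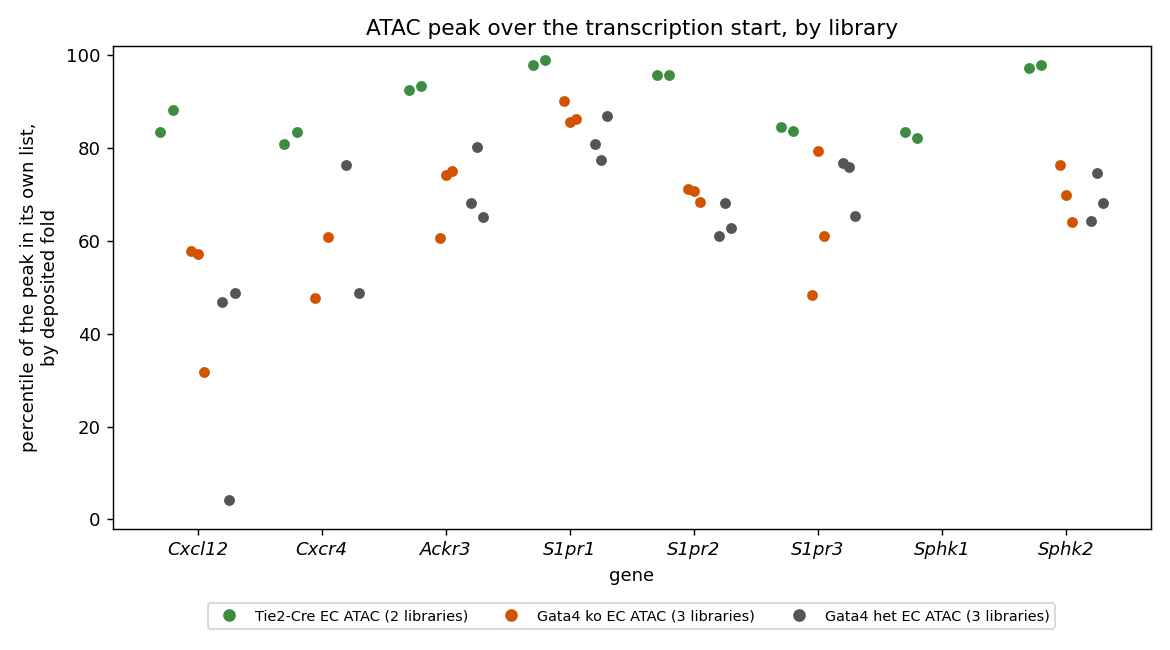
Percentile, by deposited fold within its own list, of the ATAC peak that covers the start base of each gene, for Tie2-Cre EC (green), Gata4 ko (orange) and Gata4 het (grey) libraries, with no point where no peak covers that base. S1pr1 is highest in both Tie2-Cre EC libraries, and ko and het libraries overlap at 6 of the 7 genes that have points for them. At S1pr2 the lowest ko value, 68.4, lies just above the highest het value, 68.2.

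The last comparison asked whether loss of Gata4 in EC changed which of these regions were open. RNA was not measured in ko and het EC, so the loss itself was not checked here. The 8 genes held 74, 69 and 59 ATAC peaks in ko, against 84, 78 and 67 in het (replicates 2, 3 and 4), and list lengths fell in the same order. Per 1000 peaks these were 0.846, 0.871 and 1.06 in ko, against 0.930, 0.944 and 0.997 in het, which overlap. The difference of -0.0321 was within the spread between libraries (exact two-sided permutation test, p = 0.7, smallest possible 0.1), and without ko replicate 2 it is 0.00752.

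Of 103 merged ko and het regions at the 8 genes, 46 had a peak in all 6 libraries, against 30.7% of all 128146 regions. By gene, 0 of 8 had a region in ko only and 0 of 8 in het only, against 1.49% and 3.71% of placed genes. No region was found in 3 of 3 ko and 0 of 3 het libraries, or the reverse, classes that hold only 0.144% and 0.376% of all regions. Without het replicate 3 there is 1 region in ko only, without ko replicate 3 there is 1 in het only, and without het replicate 4 there are 2. Regions found in 2 het and 0 ko libraries numbered 2, chr9:20987172-20987614 before S1pr2 and chr11:116518404-116518709 before Sphk1, named after their values were seen, and neither overlapped a GATA4 peak. No region had the reverse pattern. Beside the region before Sphk1, ko replicate 3 had a separate peak with a fold of 3.54. Both fell in 1 ATAC region, chr11:116518131-116518826, when the Tie2-Cre EC libraries were merged in as well. Of all ko and het regions, 1.72% had at least 2 ko and 0 het libraries and 3.05% at least 2 het and 0 ko libraries, and in each replicate the het list was the longer one.

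At the GATA4 regions themselves, 3 of 4 Tie2-Cre-selective and 6 of 7 shared regions had an ATAC peak in all 3 ko and all 3 het libraries. The exceptions were the Tie2-Cre-selective S1pr1 region 21.4 kb past the start and the shared one 42.8 kb before it, each with 2 ko and 3 het libraries. Of the 9 Tnnt2-Cre-selective regions none had a peak in all 6, and 6 had a peak in none. The same shares over all GATA4 regions of these classes were not computed. Whether the counts at these genes are usual thus cannot be said. The far Cxcl12 region had an ATAC peak in 1 ko and 1 het library. The intronic S1pr2 region had one in all 3 ko and all 3 het libraries.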

How the data were processed

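RNA values are read counts per gene, deposited by the authors and made with featureCounts 1.6.3 on mm10 genes with forward-strand counting, per the file headers. The submitters' processing notes also name MACS2 2.2.4, Bowtie2 2.2.9, STAR 2.7.3a, deepTools 3.3.1 and Bowtie 1.1.1, without their roles. Peaks were deposited as 1 list per library, and the deposited columns give each peak a fold (a ratio to background), a −log10 q and a −log10 p; for the control behind this ratio the labels give no detail. Gene length in bases is the remaining deposited column used, for RPKM. No per-sample column was left unmapped, and a second deposited table repeated the EC counts in all 48842 cells.

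Counts were tested on the whole table in R 4.3.3 by the quasi-likelihood F test of edgeR 4.0.16, after TMM scaling and filterByExpr, with Benjamini-Hochberg adjustment and a threshold of 0.05; DESeq2 1.42.0 was an alternative. Fold changes are EC over CM, with SE as the log2 fold change over the root of F. No replicate pair agreed within sampling noise, with chi-square per degree of freedom of 7.84 for EC and 13.4 to 33.9 for CM. Of 200 genes per run changed in counts simulated for the EC and CM comparison over 14851 genes, the test recovered 63.5% at a 1.5-fold change, 81.4% at 2-fold and 96.4% at 4-fold. In the data themselves 77.8% of genes passed, far more than were changed in the simulation. These rates therefore need not hold for the real comparison.

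Peaks were handled in Python 3.11.15 using pandas 2.3.3, scipy 1.17.1 and numpy 2.4.6, with matplotlib 3.10.9 for figures. Peaks sharing at least 1 bp were merged, and regions were set against gene bodies from the count table and 50 kb on either side. Genes on several chromosomes or strands or with copies far apart (242) were not placed. Peak presence depends on the depth and calling of each library. Whether replicate numbers pair the samples is not stated. For GATA4 the correlations of same-numbered deviations over the peak regions were 0.0332, -0.269 and -0.194. For ko and het ATAC they were 0.0425, 0.0342 and 0.115, each above the correlations with other replicate numbers. Pairing of the ko and het libraries is thus not excluded. The main tests used no replicate block, and a block was run as an alternative. Promoters are from RefSeq (7 of 8 genes matched). Sequences of the GATA4 and ATAC regions were not used here.

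The members, gene lists, tests and alternatives were chosen with earlier results of these data known. Named were all 8 genes, up to 3 genes per list with the smallest adjusted p and any running against their list, 2 nearest patterns per gene (1 of them is not reported here), and up to 3 reproducible GATA4 regions per gene by number of libraries and then fold. Sgpl1, Adm at its levels, Cd74, S1pr4 and S1pr5 were named in addition, after their values were seen.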

Additional observations from a re-analysis of the deposited data

How the results depend on the processing

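For RNA, 10 alternatives were run for each of the 8 genes (DESeq2 size factors, DESeq2, no count filter, a test against a 2-fold difference, the replicate number as a block, and each of 5 libraries left out). Of the 80 values 78 kept their direction and their side of the threshold; the exceptions were S1pr2 (log2 fold change 0.98, adjusted p = 0.632) and S1pr3 (-0.74, adjusted p = 1.00) in edgeR's test against a 2-fold difference, which asks more of the difference. In that test 5 of the 8 genes were higher and 1 lower in EC, and 5244 genes in all passed, against 11547 in the main test. With the replicate number as a block all 8 genes still passed (10977 genes in all), and Cxcr4 stood at 3.66 on the log2 scale, against 3.06 without it. With each library left out in turn, 8 genes passed each time, 6 higher and 2 lower, and Cxcr4 ranged from 2.75 to 3.65, Sphk1 from 2.74 to 3.52 and Cxcl12 from -5.20 to -4.50.

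The difference in GATA4 peaks per 1000, Tie2-Cre minus Tnnt2-Cre, turned from -0.129 to 0.132 with −log10 q of at least 5, 0.0650 with 20 kb and 0.239 with 100 kb, and ran from -0.186 to -0.0763 with a library left out. In pairs by replicate number (replicate block) its exact permutation p was 0.25. The ATAC difference, ko minus het, turned from -0.0321 to 0.0884 with −log10 q of at least 5 and 0.00598 with equal list lengths, and ran from -0.0989 to 0.00752 with a library left out. Its replicate block p was 0.5 (exact permutation).

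Many counts of regions moved with the rules, while regions in ko only stayed at 0 under each rule that kept all libraries. Equal list lengths left 0 Tie2-Cre-selective, 2 Tnnt2-Cre-selective and 1 shared region, with 1 open in EC. Asking for 3 of 3 libraries left 0, 1 and 1, with 2 open in EC. At 20 kb there were 3 Tnnt2-Cre-selective and 3 shared regions, 7 open in EC, and 30 ATAC regions in all 6 ko and het libraries. At 100 kb these were 16, 11, 23 and 86, with 11 Tie2-Cre-selective. A peak covering at least 0.5 of its region left 2 Tie2-Cre-selective and 2 shared regions, 5 open in EC, 27 ATAC regions in all 6 and 1 in het only. Asking for 2 of 3 libraries of a genotype gave 2 in het only, and −log10 q of at least 5 gave 30 in all 6. With a library left out, Tie2-Cre-selective regions ran from 0 to 6, Tnnt2-Cre-selective from 1 to 15, shared from 2 to 7, those open in EC from 2 to 12, ATAC regions in ko only from 0 to 1, in het only from 0 to 2 and in all 6 from 46 to 53. The cause of these moves was not tested beyond the shorter lists, windows or library sets themselves.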

Other observations

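Genes that share a window with the S1P genes were looked at for their own RNA. In the S1pr2 window, Icam1, an adhesion molecule of endothelium, had 53.7 CPM in EC and 11.9 CPM in CM (log2 fold change 2.18, adjusted p = 1.98e-07, edgeR). Dnmt1, which keeps DNA methylation through cell division, had 474 CPM in EC and 426 CPM in CM (log2 fold change 0.15, adjusted p = 0.0560, edgeR), and Mrpl4, a mitochondrial ribosome gene, had 17.7 CPM in EC and 15.9 CPM in CM (0.15, adjusted p = 0.204, edgeR). The shared GATA4 regions of that window thus include 2 that lie nearest to genes that did not pass the test.

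In the Sphk2 window, Rpl18, a ribosomal protein gene that starts 69 bases from Sphk2, had 185 CPM in EC and 64.4 CPM in CM, a log2 fold change of 1.52 (adjusted p = 3.03e-08, edgeR). Sphk2 itself differed by 1.51 on the log2 scale. The clock-output gene Dbp, whose start lies 12.8 kb from that of Sphk2, ran the other way, with 0.336 CPM in EC and 5.46 CPM in CM (log2 fold change -4.00, adjusted p = 2.17e-07, edgeR). Car11 (-3.11), Fam83e (-4.35) and Sec1 (-6.00) in this window also passed as lower in EC. Their levels were low, at 1.06, 0.470 and 0.210 CPM in CM. Near Sphk1, Prpsap1 was higher in EC (log2 fold change 0.65) and Ube2o lower (-0.36). In the S1pr3 window Shc3 was lower in EC (-2.58), at 0.0679 CPM in EC and 0.378 CPM in CM.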
